A study of Homo sapiens with 6 samples.

Results

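The genes described here are the core of the microRNA machinery, namely the 4 Argonaute genes AGO1, AGO2, AGO3 and AGO4, the nuclear processing genes DROSHA and DGCR8, the cytoplasmic processing gene DICER1, and the GW182 genes TNRC6A, TNRC6B and TNRC6C. They were chosen by gene symbol, and each matched 1 gene of the 30230 in the deposited count table. All 10 passed the filter on low counts that left 17076 genes for testing. The libraries were made from polyadenylated RNA of A549, a human lung adenocarcinoma line. There were 3 libraries of control cells (NC) and 3 of cells in which FSCN1, which encodes the actin bundler fascin, was silenced (siFSCN1). The study designed several siRNAs against FSCN1 and assigns one of them to the sequenced cells. For NC the study names a scrambled siRNA in its methods, its results and its sample description. The methods describe delivery with a lipid reagent and the results a plasmid that expresses the siRNA, while the treatment label of NC names a control plasmid. By the study's account both groups thus carried a small RNA, which the label of NC alone does not state. If NC carried only a plasmid, an effect of carrying an siRNA cannot be told apart from one of FSCN1 silencing. Because only 1 siRNA against FSCN1 was used in the sequenced cells, an effect of FSCN1 silencing and one of that siRNA itself cannot be told apart either. No untransfected cells were analysed here. Mature microRNAs and proteins were not measured.

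MicroRNAs are made from hairpins in longer transcripts. DROSHA and its partner DGCR8 form the Microprocessor, which cuts the hairpin out in the nucleus, and DICER1 then cuts the exported hairpin to a short duplex. An Argonaute protein keeps one strand of that duplex, or of a transfected siRNA, as a guide to matching mRNAs, and GW182 proteins bind Argonaute and recruit the enzymes that shorten the poly(A) tail. Of the human Argonautes, AGO2 is known for cutting a fully matched target, the step that an siRNA knockdown relies on.

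FSCN1, the targeted gene, had 6107, 5788 and 7265 counts in NC and 628, 390 and 450 in siFSCN1. The siFSCN1 libraries were thus all far below the NC libraries, with a log2 fold change of -3.89 (SE 0.0937, edgeR adjusted p = 8.1e-16). Library totals were between 27967301 and 36560919 counts, and no pair of libraries matched within sampling noise (chi-square per degree of freedom 3.11 to 8.23 within groups and 107.8 to 132.5 between groups). All 9 listed epithelial and A549 markers were detected, at a summed FPKM of 7533 to 8174 in NC and 7313 to 7759 in siFSCN1, while the fibroblast, endothelial and immune lists each summed to at most 0.78 FPKM in any library. A list of differentiated alveolar markers summed to between 0.30 and 0.44 FPKM in NC and between 1.61 and 1.68 FPKM in siFSCN1, most of it from AGER, with SFTPC at no more than 0.10 FPKM. The part of these markers in the differences of the members was not tested.

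Of the members, 7 passed the test at an adjusted p under 0.05 (edgeR quasi-likelihood test, adjusted over all tested genes). AGO3, AGO4, DROSHA, DICER1 and TNRC6A were higher in siFSCN1, DGCR8 and TNRC6B were lower, and AGO1, AGO2 and TNRC6C did not pass. Of all tested genes, 68.3% passed in either direction, 35.1% as higher and 33.2% as lower, so 5 of 10 higher and 2 of 10 lower lie near the share of genes at large. AGO4 alone among the members passed with a change of at least 2-fold, beside 16.5% of tested genes. The CPM values of the groups (counts scaled to library size), scaled by TMM, did not overlap for 7 members, beside 71.3% of tested genes. The median log2 fold change was 0.28 over the members and 0.03 over all tested genes. The NC and siFSCN1 TMM factors differed in every library (0.933 to 0.942 against 1.05 to 1.08), and scaling by library totals alone moved the median of all genes to 0.22 and that of the members to 0.46. With library totals, 8 members passed as higher and 1 as lower, while 46.7% of all tested genes passed as higher and 22.4% as lower. With upper quartile scaling, 7 members passed as higher and 1 as lower, beside 42.1% and 26.4% of tested genes. In these bulk samples fewer transcripts per cell and fewer cells that express a gene cannot be told apart.

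**Figure D1:**
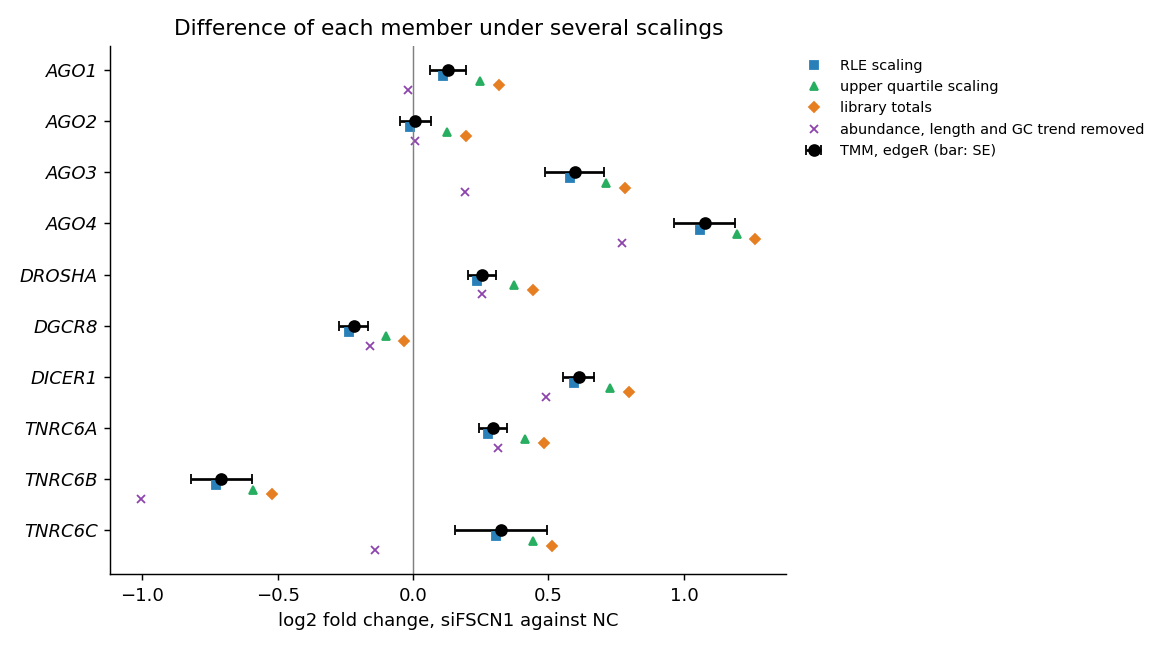
log2 fold change of each member in siFSCN1 against NC (x axis), with the TMM-scaled edgeR estimate as a black point and its standard error as a bar, and 4 other scalings or corrections as coloured marks. AGO4 sits furthest to the right at 1.08 and TNRC6B furthest to the left at -0.71, while AGO2 lies near 0 and changes sign between scalings.

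Transcript levels can be set beside each other only per length, so the order of the members is given in deposited FPKM, which was not scaled by TMM. The gene lengths behind the deposited FPKM were not given in the sources used here, and the order of genes depends on them. Over all exons DICER1 has 22151 bases and AGO2 15847, but their reference transcripts have 10384 and 14595. The order below therefore holds for the deposited FPKM only. In NC the order ran from DGCR8 (3.32 FPKM ± 0.195, SD, n = 3) through TNRC6A (3.05 ± 0.183), DROSHA (2.88 ± 0.0802), AGO2 (2.60 ± 0.185), DICER1 (2.32 ± 0.0781) and AGO1 (1.02 ± 0.0173) to TNRC6B (0.587 ± 0.0322), AGO4 (0.443 ± 0.0306), AGO3 (0.280 ± 0.0200) and TNRC6C (0.163 ± 0.0208). The libraries of DGCR8 and TNRC6A overlapped, as did those of TNRC6A and DROSHA, while all later neighbours in the order were apart in these libraries. The NC level of the members lay between percentiles 9.23 and 54.9 of the tested protein-coding genes, so none of them was among the abundant transcripts of these cells. In siFSCN1 the order began with TNRC6A (4.19 FPKM ± 0.119, SD, n = 3), DICER1 (3.98 ± 0.229) and DROSHA (3.84 ± 0.0473), whose neighbours overlapped, and DGCR8 came next at 3.20 FPKM ± 0.0833. AGO2 had 2.94 FPKM ± 0.102, AGO1 1.25 ± 0.0872 and AGO4 1.05 ± 0.0208 in siFSCN1. AGO3 (0.473 ± 0.0404 FPKM) and TNRC6B (0.403 ± 0.0577 FPKM) overlapped in siFSCN1, where TNRC6C again had the lowest level (0.230 ± 0.0361 FPKM).

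**Figure D2:**
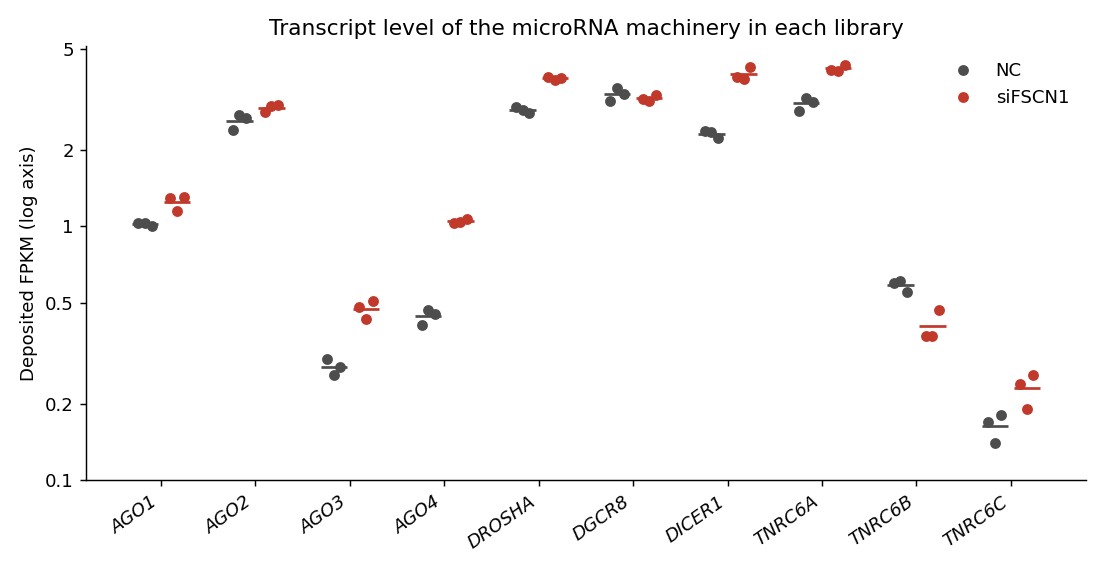
Deposited FPKM of the 10 members (log axis) in each library, with NC in grey, siFSCN1 in red and a short line at each group mean. On this scale DICER1 lay below AGO2 in NC (2.32 FPKM) and above it in siFSCN1 (3.98 FPKM), while TNRC6B went from 0.587 to 0.403 FPKM, below AGO4. The order of genes depends on the gene lengths behind the FPKM, which were not given.

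All members had exonic lengths above the median of tested protein-coding genes (5285 bases, n = 13584), from 7326 bases for DGCR8 to 22151 for DICER1. The 3′ UTR of the reference transcript was also longer than the median of 1289 bases in 9 of 10 members, the exception being DROSHA at 938 bases. AGO3 (16755 bases), TNRC6B (12567), AGO2 (11888) and AGO1 (10925) had the longest, at percentiles 99.2 to 99.9 of coding genes. Fold changes in these libraries moved with abundance. Genes with a mean under 1 FPKM had a median log2 fold change of 0.40 (n = 5969), those from 1 to 5 FPKM 0.05 (n = 5788), and those of 5 FPKM or more -0.22 (n = 5318). By this measure 4 members, AGO3, AGO4, TNRC6B and TNRC6C, were under 1 FPKM and 6 were from 1 to 5. In the class under 1 FPKM, 42.9% of genes were higher and 12.9% lower. The rises of AGO3 and AGO4 were thus in the more frequent direction of their class, and the fall of TNRC6B in the less frequent one. After the trend over all genes with abundance, exonic length and GC content was subtracted, the log2 fold change was 0.77 for AGO4, 0.49 for DICER1, 0.32 for TNRC6A, 0.25 for DROSHA and 0.19 for AGO3, and it was -0.16 for DGCR8 and -1.0 for TNRC6B. The members that passed kept their direction, while AGO1 (-0.019) and TNRC6C (-0.14), which had not passed, changed sign. No test was made on these values.

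Of the Argonaute genes, AGO3 and AGO4 rose and AGO1 and AGO2 did not pass. AGO4, AGO1 and AGO3 lie side by side in this order on the plus strand of chromosome 1 (GRCh38, chr1:35808016-35857890, chr1:35869808-35930532 and chr1:35930718-36072500), while AGO2 is on the minus strand of chromosome 8 (chr8:140520156-140635633). On chromosome 1, AGO1, the gene that did not pass, thus lies between the genes that rose.

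AGO4 (ENSG00000134698.11), which binds microRNAs but is not known as an efficient target cutter, had 111, 115 and 142 counts in NC and 290, 288 and 302 in siFSCN1. Scaled by TMM these were 3.84, 4.37 and 4.15 CPM against 8.43, 8.75 and 8.89 CPM. Every siFSCN1 library was far above the NC libraries, and the spread within each group was small beside the gap. AGO4 rose by 2.11-fold (log2 fold change 1.08, SE 0.113, edgeR adjusted p = 1.24e-07), the largest change among the members. It passed under each of the 15 alternatives that gave a test, with a log2 fold change between 0.50, on the scale of log2(FPKM + 1) in limma, and 1.26.

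The 250 bases before the RefSeq start of AGO4 are shown as those of the member that rose most, and the same window of TNRC6B as that of the member that fell most. Both are on the plus strand of GRCh38.p14, at chr1:35807766-35808015 for AGO4 and chr22:40044584-40044833 for TNRC6B. Capitals mark the letters CCAAT (the CCAAT box) and GGGCGG (the GC box) on either strand, so that ATTGG and CCGCCC are also capitalised, and TATAAA was searched as well. The motifs do not overlap each other here.
AGO4: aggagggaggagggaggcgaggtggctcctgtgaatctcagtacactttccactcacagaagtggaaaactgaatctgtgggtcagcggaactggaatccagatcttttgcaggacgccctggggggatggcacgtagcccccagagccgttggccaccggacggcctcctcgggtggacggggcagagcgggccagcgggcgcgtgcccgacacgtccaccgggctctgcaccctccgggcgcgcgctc
TNRC6B: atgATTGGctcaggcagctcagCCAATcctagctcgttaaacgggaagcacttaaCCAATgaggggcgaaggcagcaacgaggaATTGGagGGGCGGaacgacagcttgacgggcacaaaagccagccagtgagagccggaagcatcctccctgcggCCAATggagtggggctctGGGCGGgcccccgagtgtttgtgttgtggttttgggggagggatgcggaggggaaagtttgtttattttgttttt
The AGO4 window held none of the 3 motifs, with a GC content of 66.4%, and the TNRC6B window held 5 CCAAT and 2 GGGCGG and no TATAAA, with a GC content of 56.4%. Among 35116 RefSeq promoter windows of this length, 32.0% held CCAAT, 42.6% GGGCGG and 10.7% TATAAA, and 0.319% held at least 5 CCAAT. Of the 9 members matched by symbol in the RefSeq table, 7 had CCAAT in at least 1 window, 8 had GGGCGG and none had TATAAA. These counts are per gene, with 5 windows for DICER1 and 4 for TNRC6C, so they cannot be set beside the shares of single windows. AGO2 had no entry. A match is a description of the letters, and no match says only that these letters are not in this window.

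AGO3 (ENSG00000126070.20) had 230, 185 and 250 counts in NC and 385, 344 and 410 in siFSCN1, or 7.96, 7.03 and 7.30 CPM against 11.2, 10.5 and 12.1 CPM. The 3 siFSCN1 libraries were all above the 3 NC libraries. It rose by 1.51-fold (log2 fold change 0.60, SE 0.109, edgeR adjusted p = 9.37e-05). AGO1 (ENSG00000092847.13), which represses targets through GW182 proteins, had 18.1, 17.9 and 17.4 CPM in NC and 19.9, 18.1 and 20.4 CPM in siFSCN1, so that siFSCN1 replicate 2 lay among the NC libraries. Its log2 fold change was 0.13 (SE 0.0678, edgeR adjusted p = 0.099), and it passed under upper quartile scaling (0.25, adjusted p = 0.00325) and library totals (0.32, adjusted p = 0.000566), and also with the stricter filter and on both FPKM scales in limma.

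AGO2 (ENSG00000123908.12), the cutting Argonaute, had 1392, 1440 and 1809 counts in NC and 1698, 1764 and 1823 in siFSCN1. On the TMM scale it had 48.2, 54.7 and 52.8 CPM in NC and 49.4, 53.6 and 53.7 CPM in siFSCN1. The groups overlapped, with the highest and the lowest library both in NC. The log2 fold change was 0.01 (SE 0.0566, edgeR adjusted p = 0.906). Its sign depended on the scaling, from -0.01 with RLE to 0.20 with library totals, where it passed (adjusted p = 0.00672). Relative to the median of all genes it was -0.02 under TMM, RLE, upper quartile and library totals. These scalings shift all genes by nearly the same amount, so the 4 values are not separate checks. On the deposited FPKM scale the groups did not overlap, with 2.39, 2.74 and 2.67 FPKM in NC and 2.82, 2.98 and 3.01 FPKM in siFSCN1, but limma on log2(FPKM + 0.1) gave an adjusted p of 0.0627.

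A share within a library does not depend on how libraries are scaled. AGO2 made up 57.9%, 60.9% and 60.7% of the summed Argonaute FPKM in NC and 50.2%, 53.2% and 51.0% in siFSCN1. All siFSCN1 libraries were below all NC libraries, with means of 59.8% ± 1.69 and 51.5% ± 1.57 (SD, n = 3 each). The share fell by 8.34 percentage points (exact two-sided permutation p = 0.1, Benjamini-Hochberg adjusted p = 0.125 over 5 such tests). With 3 libraries against 3 an exact p cannot be lower than 0.1. The share of AGO4 was 10.2% ± 0.260 in NC and 18.3% ± 0.218 in siFSCN1 (SD, n = 3 each). For AGO3 the shares were 6.47% ± 0.749 and 8.29% ± 0.530, and for AGO1 they were 23.5% ± 1.23 and 21.9% ± 1.24 (SD, n = 3 each), with no test. The summed Argonaute FPKM was 4.34 ± 0.191 in NC and 5.71 ± 0.168 in siFSCN1, a scale on which library composition is not corrected.

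**Figure D3:**
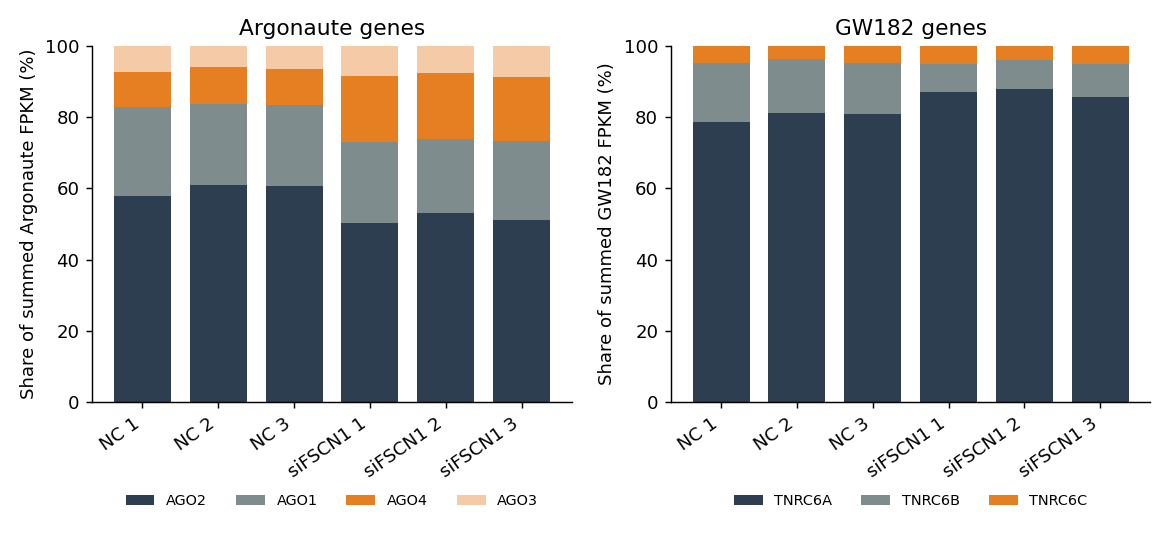
Share of each gene in the summed Argonaute FPKM (left) and in the summed GW182 FPKM (right), in percent, as 1 stacked bar per library. AGO4 takes 10.2% of the Argonaute sum on average in NC and 18.3% in siFSCN1, and TNRC6B takes 15.5% and 8.33% of the GW182 sum.

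On the TMM scale the Microprocessor genes moved in opposite directions, though the fall of DGCR8 did not pass under every scaling. DROSHA (ENSG00000113360.17, chr5:31400494-31532196, minus strand), the nuclease, had 845, 740 and 929 counts in NC and 1150, 1104 and 1148 in siFSCN1, or 29.2, 28.1 and 27.1 CPM against 33.4, 33.5 and 33.8 CPM. The siFSCN1 libraries lay close together and above all NC libraries. It rose by 1.19-fold (log2 fold change 0.25, SE 0.0502, edgeR adjusted p = 0.000207) and passed under all alternatives that gave a test.

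DGCR8 (ENSG00000128191.16, chr22:20080221-20111877, plus strand), the partner that recognises the hairpin, had 838, 850 and 1038 counts in NC and 881, 855 and 920 in siFSCN1. These were 29.0, 32.3 and 30.3 CPM in NC and 25.6, 26.0 and 27.1 CPM in siFSCN1, where every library was below the NC libraries. Its log2 fold change was -0.22 (SE 0.0533, edgeR adjusted p = 0.00142), a level of 0.859 times that in NC. This call was lost with upper quartile scaling (-0.10, adjusted p = 0.0984), library totals (-0.03, adjusted p = 0.631) and limma on log2(FPKM + 0.1) (-0.05, adjusted p = 0.50). Relative to the median of all genes the value was -0.25 under each of the 4 count scalings, which shift all genes by nearly the same amount. On the FPKM scale the groups overlapped, with 3.12, 3.51 and 3.32 FPKM in NC and 3.17, 3.13 and 3.29 FPKM in siFSCN1.

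The ratio of DROSHA to DGCR8 FPKM, which no scaling of libraries alters, was 0.949, 0.818 and 0.843 in NC and 1.22, 1.21 and 1.17 in siFSCN1. On this FPKM scale every NC library had less DROSHA than DGCR8, and every siFSCN1 library had more. The mean ratio went from 0.870 ± 0.0694 to 1.20 ± 0.0263 (SD, n = 3 each, exact two-sided permutation p = 0.1, Benjamini-Hochberg adjusted p = 0.125).

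The DGCR8 transcript is known to carry hairpins that the Microprocessor itself cuts, and the microRNAs annotated there are shown because they tie both genes to one transcript. RefSeq places hsa-miR-3618 at chr22:20085797-20085818, in the 5′ UTR of the reference DGCR8 transcript, and hsa-miR-1306-5p and hsa-miR-1306-3p at chr22:20086072-20086093 and chr22:20086112-20086129, in its coding sequence, all on the plus strand of GRCh38.p14. Capitals mark the seed, bases 2 to 8.
hsa-miR-3618: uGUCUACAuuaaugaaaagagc
hsa-miR-1306-5p: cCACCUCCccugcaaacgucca
hsa-miR-1306-3p: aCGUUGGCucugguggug
No 2 of these seeds are the same. The levels of these microRNAs and of their hairpins were not analysed here. The antisense neighbour TRMT2A, a tRNA methyltransferase gene whose exons overlap those of DGCR8 on the other strand, had 976, 872 and 1178 counts in NC and 972, 910 and 957 in siFSCN1, with a log2 fold change of -0.27 (SE 0.0487, edgeR adjusted p = 8.45e-05). The labels and the methods both name a library kit that keeps strand, but whether the counting used strand was not given in the sources used here. If it did not, reads of DGCR8 and TRMT2A in the shared part cannot be told apart.

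DICER1 (ENSG00000100697.15, chr14:95086228-95158010, minus strand), which cuts the exported hairpin, had 1101, 993 and 1210 counts in NC and 1866, 1810 and 2055 in siFSCN1. On the TMM scale these were 38.1, 37.7 and 35.3 CPM in NC and 54.3, 55.0 and 60.5 CPM in siFSCN1. All siFSCN1 libraries were above all NC libraries by more than the spread within either group. DICER1 rose by 1.53-fold (log2 fold change 0.61, SE 0.0559, edgeR adjusted p = 1.94e-08), and it passed under all alternatives that gave a test, between 0.55 and 0.80. Its exons overlap those of DICER1-AS1, a long noncoding RNA gene on the other strand, which had 35, 25 and 27 counts in NC and 155, 144 and 149 in siFSCN1. DICER1-AS1 rose by 4.52-fold (log2 fold change 2.18, SE 0.178, edgeR adjusted p = 4.07e-09), although at 0.983 CPM ± 0.213 in NC and 4.42 CPM ± 0.0738 in siFSCN1 (SD, n = 3 each) it was far below DICER1. The libraries were stranded, but if the counting did not use strand, the reads of these genes in the shared exons cannot be told apart either.

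DICER1 mRNA is a known target of the let-7 microRNAs, which DICER1 makes. Bases 2 to 8 of hsa-let-7a-5p, in capitals below, pair with the letters CTACCTC in an mRNA. The reference DICER1 transcript of GENCODE held these letters 4 times in its coding sequence and in neither UTR, and each match is shown in the mRNA sense with its flanks, the match in capitals. They lie on the minus strand of GRCh38 at chr14:95107884-95107910, chr14:95103744-95103770, chr14:95103636-95103662 and chr14:95094102-95094128, each within 1 exon.
hsa-let-7a-5p: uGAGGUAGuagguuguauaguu
DICER1 match 1: tcagcatactgtgttCTACCTCttaat
DICER1 match 2: tacccgtgcaaccaaCTACCTCatatt
DICER1 match 3: gaaatgctaacaaatCTACCTCagatg
DICER1 match 4: agatgcgattttggaCTACCTCataac
At least 1 match in the coding sequence was found in 14.2% of tested protein-coding genes, and at least 4 in 0.118% (16 genes, DICER1 included). Of the members, 3 had a match in the coding sequence (DICER1 with 4, TNRC6C with 2 and AGO3 with 1) and 3 in the 3′ UTR (AGO2 with 2, AGO1 and AGO3 with 1 each), where 11.0% of genes had one. These matches are letters only, and neither let-7 levels nor binding was measured. Of 18 tested genes listed as let-7 targets, DICER1 included, 6 were higher, 7 were lower and 5 did not pass, beside 35.1% higher and 33.2% lower among all tested genes. Their median log2 fold change was -0.02 beside 0.03 over all genes. DICER1 had the largest rise among them. HMGA1, a chromatin architectural protein gene, had the largest fall, from 275.98, 301.35 and 286.33 FPKM in NC to 158.98, 148.89 and 150.72 FPKM in siFSCN1 (log2 fold change -1.08, SE 0.0391, edgeR adjusted p = 6.46e-14). With library totals 10 of these targets were higher and 5 lower, beside 46.7% and 22.4% of all tested genes.

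Of the GW182 genes, TNRC6A rose, TNRC6B fell and TNRC6C did not pass. TNRC6A (ENSG00000090905.19, chr16:24610209-24827632, plus strand), the most abundant of them, had 1356, 1377 and 1709 counts in NC and 2042, 1991 and 2146 in siFSCN1, or 46.9, 52.3 and 49.9 CPM against 59.4, 60.5 and 63.2 CPM. The siFSCN1 libraries were all above the NC libraries. It rose by 1.23-fold (log2 fold change 0.30, SE 0.0528, edgeR adjusted p = 7.57e-05).

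TNRC6B (ENSG00000100354.21, chr22:40044817-40335808, plus strand), whose promoter window is shown above, had 440, 406 and 472 counts in NC and 279, 277 and 362 in siFSCN1. The CPM values were 15.2, 15.4 and 13.8 in NC and 8.11, 8.41 and 10.7 in siFSCN1. Replicate 3 of siFSCN1 was higher than the other siFSCN1 libraries but still below all NC libraries. Its level was 0.612 times that in NC (log2 fold change -0.71, SE 0.112, edgeR adjusted p = 1.97e-05), the largest fall among the members, and it passed under all alternatives that gave a test, between -0.85 and -0.18, the latter on the scale of log2(FPKM + 1).

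TNRC6C (ENSG00000078687.17, chr17:77958703-78108822, plus strand) had few reads, with 69, 53 and 85 counts in NC and 101, 80 and 112 in siFSCN1. At 2.39, 2.01 and 2.48 CPM against 2.94, 2.43 and 3.30 CPM the groups overlapped, and the log2 fold change of 0.33 (SE 0.169) did not pass (edgeR adjusted p = 0.0964), though it did with upper quartile scaling (0.44, adjusted p = 0.0265) and library totals (0.51, adjusted p = 0.0118). The antisense gene TMC6, which shares exon sequence with TNRC6C on the other strand, had a log2 fold change of -0.12 (edgeR adjusted p = 0.255) and 375 to 507 counts per library, more than TNRC6C itself. Here too, if the counting did not use strand, reads of TNRC6C and TMC6 in the shared part cannot be told apart.

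TNRC6A made up 78.7%, 81.1% and 80.9% of the summed GW182 FPKM in NC and 87.2%, 88.0% and 85.6% in siFSCN1. TNRC6B made up 16.6%, 15.4% and 14.4% in NC and 7.79%, 7.92% and 9.29% in siFSCN1. The groups did not overlap for either gene. The mean share of TNRC6A went from 80.2% ± 1.30 to 86.9% ± 1.24 and that of TNRC6B from 15.5% ± 1.09 to 8.33% ± 0.830 (SD, n = 3 each, exact two-sided permutation p = 0.1 for each, Benjamini-Hochberg adjusted p = 0.125). TNRC6C, at 4.32% ± 0.675 and 4.75% ± 0.595, overlapped between groups (exact two-sided permutation p = 0.5, adjusted p = 0.5). The ratio of the summed Argonaute FPKM to the summed GW182 FPKM was 1.14 ± 0.00795 in NC and 1.18 ± 0.0166 in siFSCN1 (SD, n = 3 each).

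Around these members, 85 further genes of the pathway were listed in 5 groups, of which 83 were tested. Of these, 23 were higher, 48 were lower and 12 did not pass, beside 35.1% higher and 33.2% lower among all tested genes. Their median log2 fold change was -0.23. The split was 30 higher and 34 lower with library totals, beside 46.7% and 22.4% of all tested genes. Across the whole table, genes of 5 FPKM or more were lower in 59.1% and higher in 23.2% of cases and those from 1 to 5 FPKM were lower in 30.3%, and the groups differed in how many such genes they held.

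In primary transcript processing and export 12 of 14 genes were lower, 1 was higher and METTL3 did not pass, with a median log2 fold change of -0.44. Among all tested genes 33.2% were lower and 35.1% higher. With library totals 9 were lower and 2 higher, beside 22.4% and 46.7% of all tested genes. A mean of 5 FPKM or more was found for 12 of the 14. Of these 12, 10 were lower and 1 higher, beside 59.1% and 23.2% of all genes in that class. SMAD1, a signalling factor known to bind the Microprocessor, went from 0.81, 0.99 and 0.82 FPKM to 0.38, 0.35 and 0.39 FPKM (log2 fold change -1.39, SE 0.126, edgeR adjusted p = 1.76e-08). KHSRP, which binds the terminal loop of some hairpins, fell by 1.13 on the log2 scale (SE 0.0471, edgeR adjusted p = 3.97e-13). DDX17, a Microprocessor helicase, was the gene that rose (log2 fold change 0.27, SE 0.0405, edgeR adjusted p = 1.23e-05). XPO5, the exporter of the hairpin, had 5.41 FPKM ± 0.269 in NC and 4.33 FPKM ± 0.239 in siFSCN1 (SD, n = 3 each) and a log2 fold change of -0.49 (edgeR adjusted p = 3.38e-07).

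Among partners of DICER1 and chaperones that load Argonaute, 14 of 15 genes were lower and 1 was higher, with a median of -0.54. Among all tested genes 33.2% were lower and 35.1% higher. With library totals 12 were lower and 1 higher, beside 22.4% and 46.7% of all tested genes. A mean of 5 FPKM or more was found for 14 of the 15. Of these 14, 13 were lower and 1 higher, beside 59.1% and 23.2% of all genes in that class. TARBP2, the double-stranded RNA-binding partner of DICER1, went from 7.79, 8.25 and 8.02 FPKM in NC to 4.49, 3.69 and 3.87 FPKM in siFSCN1, so it was lower in all siFSCN1 libraries, where DICER1 was higher. Its log2 fold change was -1.16 (SE 0.0601, edgeR adjusted p = 7.48e-12). The HSP90 co-chaperones FKBP4 and STIP1 and the HSP70 co-chaperone DNAJB1 also passed 2-fold, with log2 fold changes of -1.17, -1.09 and -1.0. TSNAX, a subunit of the C3PO nuclease that clears the passenger strand, was the gene that rose (log2 fold change 0.30, SE 0.0635, edgeR adjusted p = 0.000458).

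Of 24 deadenylation and decapping genes, 10 were higher, 10 were lower and 4 did not pass, with a median log2 fold change of -0.04. This compares with 35.1% higher and 33.2% lower among all tested genes. With library totals 12 were higher and 5 lower, beside 46.7% and 22.4% of all tested genes. A mean of 5 FPKM or more was found for 12 of the 24, a smaller part than in the groups above. The part of abundance in the difference between the groups was not tested. PAN2, the nuclease of the PAN2-PAN3 deadenylase that GW182 proteins recruit, went from 0.77, 0.95 and 0.85 FPKM to 2.11, 1.84 and 2.00 FPKM, a log2 fold change of 1.05 (SE 0.103, edgeR adjusted p = 4.91e-08). CNOT9, the CCR4-NOT subunit that GW182 proteins contact, had the largest fall of that group (log2 fold change -0.88, SE 0.0476, edgeR adjusted p = 1.4e-11). Of 12 tested tailing, trimming and decay genes, 6 were higher and 4 lower, beside 35.1% and 33.2% of all tested genes. A mean of 5 FPKM or more was found for 2 of the 12. HENMT1, a small RNA methyltransferase gene, was highest at 0.74 and PARN, a poly(A) nuclease gene, lowest at -0.50 on the log2 scale.

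Of 18 tested genes of proteins found with Argonaute, 5 were higher, 8 were lower and 5 did not pass, beside 35.1% higher and 33.2% lower among all tested genes. With library totals 9 were higher and 5 lower, beside 46.7% and 22.4% of all tested genes. A mean of 5 FPKM or more was found for 9 of the 18. GEMIN4, a component of the SMN complex found with Argonaute, fell from 9.11, 9.50 and 8.94 FPKM to 3.89, 3.58 and 3.56 FPKM (log2 fold change -1.49, SE 0.0534, edgeR adjusted p = 5.97e-14). EIF4E2, a cap-binding protein of translational repression, fell by 1.22 on the log2 scale, and WTIP, a LIM-domain protein, rose by 0.62. Of the PIWI genes, the germline relatives of the Argonautes, 2 of 4 were tested, and PIWIL4 was higher (log2 fold change 1.14, SE 0.347, edgeR adjusted p = 0.00722) but only at 0.0533 FPKM ± 0.00577 in NC and 0.143 FPKM ± 0.0252 in siFSCN1 (SD, n = 3 each). DESeq2 did not call it (adjusted p = 0.0554).

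**Figure D4:**
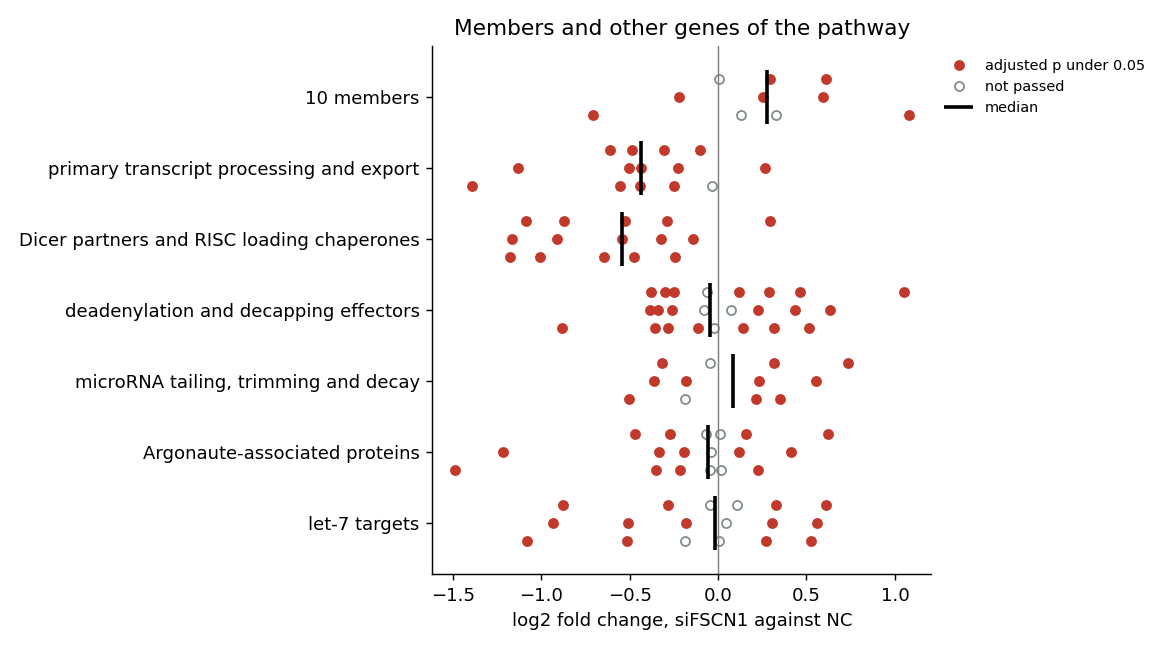
log2 fold change in siFSCN1 against NC of the 10 members and of each listed group of pathway genes, 1 point per gene, with filled red points at an edgeR adjusted p under 0.05 and a black line at the median of each list. The groups of hairpin processing and of DICER1 partners and chaperones have medians of -0.44 and -0.54, and the members one of 0.28.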

How the data were processed

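The authors deposited raw counts per gene and, in a second table, FPKM (counts adjusted for the length of the gene and the size of the library) for 6 polyadenylated RNA libraries, 3 NC and 3 siFSCN1, grouped by title. The study's methods name HISAT2 and uniquely mapped reads, the submitters' processing notes name TopHat2, and the build is GRCh38. The library kits named are stranded. How reads were counted per gene, with which strand setting and on which annotation, was not given in the sources used here. The study calls the libraries biological replicates, but the labels name no separate cultures, so p-values measure the spread between these libraries.

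The deposited counts, filtered by filterByExpr and scaled by TMM, entered a quasi-likelihood fit in edgeR 4.0.16 (R 4.3.3) over 17076 genes, with p-values adjusted by Benjamini-Hochberg. The script was tested on simulated data. The shares and the ratio of members, from deposited FPKM, were tested by exact permutation (scipy 1.17.1). Of 30230 identifiers, 30147 were found in GENCODE v44, the source of positions, lengths and DICER1 sequence. MicroRNAs and promoters came from RefSeq (GRCh38.p14).

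The members and lists were chosen with earlier results of these data known. Genes named are all members, FSCN1, and, from each pathway list, those past an adjusted p under 0.05 that changed at least 2-fold plus the largest rise and fall. XPO5, METTL3, the overlapping genes DICER1-AS1, TRMT2A and TMC6, and the markers AGER and SFTPC were named outside that rule after their values were seen. The alternatives were RLE, upper quartile and library total scaling, DESeq2 1.42.0, a filter that asked for 1 count only, one that asked for 1 CPM in 3 libraries and 10 counts on average, a replicate block, leaving out each library, limma 3.58.1 on log2(FPKM + 0.1) and log2(FPKM + 1), and subtracting the trend with abundance, length and GC (mgcv 1.9.3, no test). Shares were also computed from counts per exonic length. No column was left unused.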

Additional observations from a re-analysis of the deposited data

How the results depend on the processing

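All 16 alternatives gave values for the members. AGO3, AGO4, DROSHA, DICER1, TNRC6A and TNRC6B kept their direction under all of them and passed wherever there was a test. The number of members higher was 8 with library totals, beside 46.7% of all tested genes. The number lower was 1 with upper quartile scaling, library totals and both limma fits, in each of which DGCR8 was not called. In these 4 fits 26.4%, 22.4%, 23.0% and 22.9% of all tested genes were lower. The median log2 fold change of the members was 0.39 with upper quartile scaling, 0.46 with library totals, 0.36 on log2(FPKM + 0.1), 0.18 on log2(FPKM + 1) and 0.10 with the trend removed, where the medians of all genes were 0.15, 0.22, 0.17, 0.08 and -0.02. AGO2 turned negative with RLE (-0.0099), no filter (-0.0011) and DESeq2 (-0.021), and it ran from -0.052 to 0.035 when 1 library was left out, below 0 without NC replicate 1, siFSCN1 replicate 2 or siFSCN1 replicate 3. With the trend removed AGO1 was -0.019 and TNRC6C -0.14. Leaving out each library in turn left 5 members higher and 2 lower, with a median of 0.23 to 0.27. Among all tested genes 31.7% to 32.9% were then higher and 31.1% to 32.6% lower, so these counts again lie near the share of genes at large. With 1 library left out, the AGO2 share differed by -9.32 to -7.70 percentage points and the ratio of DROSHA to DGCR8 by 0.307 to 0.372. Libraries of the same replicate number did not deviate together (correlations of deviations -0.0607, 0.0854 and -0.158), and with a replicate block 5 members were higher and 2 lower, with a median of 0.28. At the depth of AGO4 and TNRC6C, 53 to 142 counts in each NC library, small changes are not resolved, and 3 libraries a group cannot give an exact p under 0.1.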
